A study of Mus musculus with 8 samples.

Results

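Neutrophils carry their antimicrobial cargo in granules that are filled in sequence as the cells mature, and 10 mouse genes for the secondary (specific) and tertiary (gelatinase) granules and for abundant proteins of the maturing cell are described here: Ltf, Camp, Ngp, Lcn2, Mmp8, Mmp9, Retnlg, S100a8, S100a9 and Ly6g. They were taken by gene symbol from a deposited expression table of 16434 genes, in which all 10 were found. All 10 had an FPKM (sequenced fragments scaled by transcript length and library total) of at least 1 in every library, so none was lost to a filter on low values.

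In the marrow, promyelocytes make the primary granules with myeloperoxidase and elastase, myelocytes and metamyelocytes then make the secondary granules with lactoferrin and cathelicidin, and band and segmented cells make the tertiary granules with gelatinase. Each granule protein is made in a narrow window, so the set of granule transcripts in a myeloid cell reflects how far it has matured. The transcription factor C/EBP epsilon, the product of Cebpe, is known as a requirement for the secondary granule genes.

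The study sequenced poly(A) RNA from bone marrow cells of C57BL/6 mice aged 8 to 10 weeks, with 1 library in each of 8 groups, sorted by surface antigen. For 4 groups the mice overexpressed N-Myc and had leukaemia, and GFP marked the leukaemia cells. B-ALL, the acute lymphoblastic leukaemia of the B lineage, was sorted as B220+ GFP+, and T-ALL, that of the T lineage, as CD3+ GFP+. AML, the acute myeloid leukaemia, was sorted on Mac1, Gr1 and GFP, and AUL, the undifferentiated acute leukaemia, on GFP and the absence of B220, CD3, Mac1 and Gr1. The 4 normal groups came from marrow without leukaemia: B220+ B cells, CD3+ T cells, myeloid cells with Mac1 and Gr1, and a lineage-negative population labelled as lacking the same antigens as AUL, which was sorted after staining with a lineage antibody cocktail. How N-Myc was introduced, and whether a library came from 1 mouse or several, is not given in the sources used here. The Gr1 antibody binds the Ly6G protein and also Ly6C, so Ly6g was an antigen of the myeloid sort, and Mac1 is the integrin of Itgam and Itgb2. With 1 library per group, no comparison within a gate had a replicate check and none has a p-value. Intervals given are 95% exact binomial intervals of a ratio of fragments and cover counting error only.

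The depth recovered from the values was 33818604 fragments in AUL to 52280274 in normal myeloid cells. Mycn, the gene of N-Myc, was at 719 to 1858 FPKM in the 4 leukaemias and at 0.518 to 5.24 FPKM in the 4 normal libraries. The RNA of Mac1 did not follow the AML label, since Itgam was at 1.63 FPKM in AML, below each of the other libraries, and at 208.1 FPKM in normal myeloid cells. Ly6c2, which encodes the other antigen of the Gr1 antibody, was at 1081 FPKM in AML and 608.8 FPKM in normal myeloid cells. The normal lineage-negative library, labelled as lacking both antigens, held Itgam at 34.1 FPKM and Ly6g at 85.4 FPKM. The 8 neutrophil markers Cxcr2, Csf3r, Cd177, Chil3, Itgb2l, Wfdc21, Fpr1 and Trem1 were above 0 in all 8 libraries, so neutrophil transcripts were measured in every library. Their summed level was 11677 FPKM in normal myeloid cells, 3248 in AML, 1522 in normal lineage-negative cells, 764.8 in B-ALL, 216.3 in normal B cells, 196.3 in T-ALL, 161.7 in AUL and 76.0 in normal T cells. Chil3 alone gave 3004 FPKM of the sum in AML and 148.5 in T-ALL. It gave 867.8 in normal lineage-negative cells, 352.2 in B-ALL and 102.9 in AUL. The places of AML and T-ALL in this order therefore rest on Chil3 and do not describe the markers as a set.

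The members are given here with their places in the mouse genome (mm10, GENCODE vM21 gene models). On chromosome 9, Camp (ENSMUSG00000038357, chr9:109847379-109849617), Ngp (ENSMUSG00000032484, chr9:110419747-110423012) and Ltf (ENSMUSG00000032496, chr9:111019271-111042767) lie within 1195 kb of each other, and Mmp8 (ENSMUSG00000005800, chr9:7558456-7568485) lies far from them on the same chromosome. On chromosome 3, S100a8 (ENSMUSG00000056054, chr3:90668978-90670035) and S100a9 (ENSMUSG00000056071, chr3:90692632-90695721) are separated by 22.6 kb. Lcn2 (ENSMUSG00000026822, chr2:32384633-32388252) and Mmp9 (ENSMUSG00000017737, chr2:164940780-164955850) are on chromosome 2, Retnlg (ENSMUSG00000022651, chr16:48872608-48874498) is on chromosome 16 and Ly6g (ENSMUSG00000022582, chr15:75155240-75159126) is on chromosome 15. No other annotated gene overlaps any of the 10.

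The promoter sequences are shown for 4 members, because Ngp and Camp had the highest levels in AML as a percent of normal myeloid cells, while Ltf and Mmp8 were below 1% of that reference. RefSeq windows (GRCm38.p6, 250 bases before to 50 after a transcript start) were matched for 9 of the 10 members, all but Mmp9. The 160 bases before the start are printed 5′ to 3′ on the gene's strand, and capitals mark matches on either strand to the loose C/EBP motif TTNCNNAA.
Ngp, chr9:110419648-110419807 (+): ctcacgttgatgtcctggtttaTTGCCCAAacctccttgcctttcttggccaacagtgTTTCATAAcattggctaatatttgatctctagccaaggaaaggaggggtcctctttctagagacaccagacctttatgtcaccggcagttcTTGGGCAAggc
Camp, chr9:109849457-109849616 (-): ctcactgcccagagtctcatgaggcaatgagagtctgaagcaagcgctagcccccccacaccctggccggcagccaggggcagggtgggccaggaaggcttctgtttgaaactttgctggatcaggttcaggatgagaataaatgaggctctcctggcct
Ltf, chr9:111019132-111019291 (+): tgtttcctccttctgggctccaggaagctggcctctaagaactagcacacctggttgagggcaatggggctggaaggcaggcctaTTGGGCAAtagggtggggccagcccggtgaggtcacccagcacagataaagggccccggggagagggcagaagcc
Mmp8, chr9:7558269-7558428 (+): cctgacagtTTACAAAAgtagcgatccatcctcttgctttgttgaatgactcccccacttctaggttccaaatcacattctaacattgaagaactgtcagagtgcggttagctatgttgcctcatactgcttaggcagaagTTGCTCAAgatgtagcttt

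Ngp held 3 of these matches, at -138, -102 and -11 from the start, and those at -138 and -11 also fit the stricter C/EBP motif TTGCNNAA, which the loose motif contains. Ltf held a strict match at -75 and a further loose one at -217, outside the printed stretch. Mmp8 held a strict match at -19 and a loose one at -151. Camp held no match to any of the 4 motifs searched in its window. The RefSeq starts differ from the ends of the GENCODE gene models given above. For Camp the printed stretch lies wholly inside the gene model (chr9:109847379-109849617), so little sequence upstream of that model was searched. The stretches of Ngp and Ltf overlap their gene models in part, and that of Mmp8 ends before its model begins. The windows of these genes are therefore not placed alike. Over all 9 windows and both strands, TTGCNNAA was found in 7 of 9 members and in 10.8% of 27025 genes with a window, and TTNCNNAA in 8 of 9 members and 40.7% of genes. The PU.1 motif GAGGAA was found in 5 of 9 members and 28.3% of genes. The TATA box letters TATAAA were found, at any place in the window, in 4 of 9 members and 14.2% of genes. They began at -30 in S100a8, -99 in Ly6g, 1 in S100a9 and, on the opposite strand, -3 in Mmp8. A match describes the letters only, and binding was not measured.

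Together the 10 genes took 13.2% of all fragments in the normal myeloid library, 5.63% being S100a8 and S100a9. The share was 1.45% in normal lineage-negative cells, 0.877% in AML, 0.826% in B-ALL, 0.198% in normal B cells, 0.160% in AUL, 0.125% in T-ALL and 0.0760% in normal T cells. Normal myeloid cells had the highest level of each of the 10 genes. In bulk RNA, fewer cells of a type and less RNA per cell cannot be told apart. Levels are compared between genes only in FPKM, which divides by the mean length of a gene's annotated transcripts, and this matters most for Ltf, whose mean is 681 bases over 12 transcripts and whose longest transcript is 2743 bases.

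**Figure D1:**
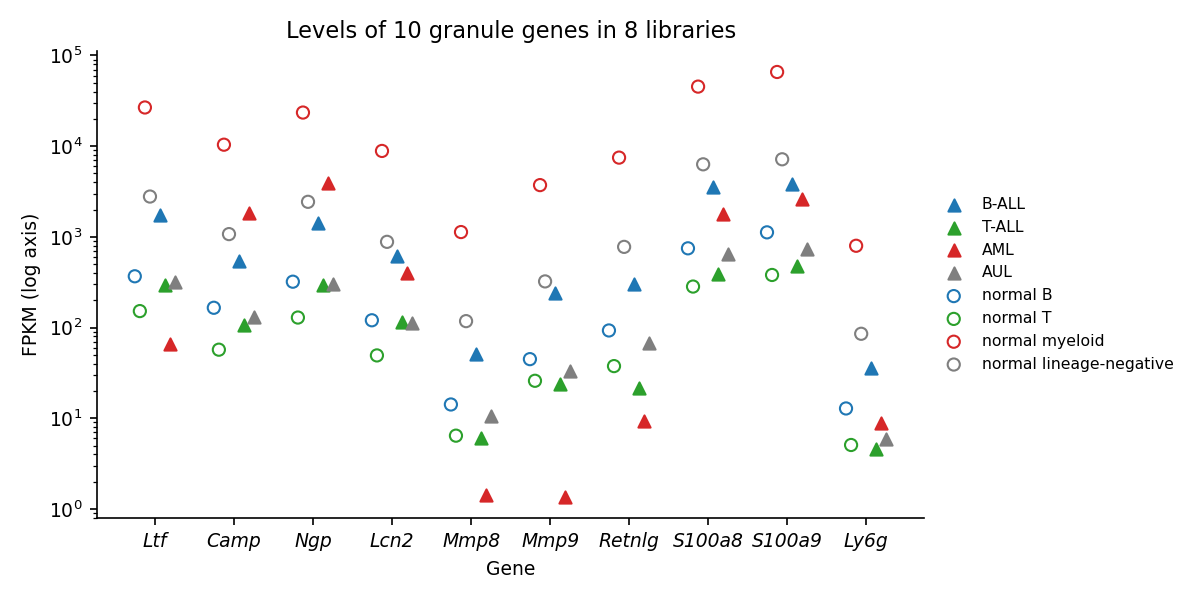
Level of each of the 10 genes (FPKM, log axis) in the 8 libraries, 1 point per library. Normal myeloid cells are highest for every gene, whereas AML is second for Camp and Ngp and lowest of all for Ltf, Mmp8, Mmp9 and Retnlg.

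Of the secondary granule proteins, the cathelicidin precursor Camp, from which an antimicrobial peptide is cut, was at 1822 FPKM in AML, 543.7 in B-ALL, 132.2 in AUL and 106.2 in T-ALL, against 10386 in normal myeloid, 1073 in normal lineage-negative, 165.3 in normal B and 57.0 in normal T cells. Ngp, the neutrophilic granule protein related to the cathelicidins, was at 3881 FPKM in AML, 1429 in B-ALL, 303.2 in AUL and 294.8 in T-ALL, against 23489, 2436, 320.6 and 129.0 in normal myeloid, lineage-negative, B and T cells. For both, AML stood second of the 8 libraries. The closest neighbours for Ngp were AUL and T-ALL, with a ratio of 1.03 and a counting interval of 1.005 to 1.053, which lies just above 1.

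Ltf encodes lactoferrin, the iron-binding protein by which secondary granules are usually recognised. It was at 66.4 FPKM in AML, 317.8 in AUL, 297.6 in T-ALL and 1730 in B-ALL, against 26716 in normal myeloid, 2785 in lineage-negative, 367.8 in normal B and 152.0 in normal T cells. AML was therefore the lowest library for lactoferrin, below even normal T cells. Lcn2, the lipocalin that binds bacterial siderophores, lay between these patterns: 399.0 FPKM in AML, 620.9 in B-ALL, 115.1 in T-ALL and 113.2 in AUL, against 8863, 881.9, 120.4 and 49.3 in normal myeloid, lineage-negative, B and T cells. AML had rank 4 of 8 for Lcn2, and only T-ALL and AUL were not separated by counting error (ratio 1.02, 0.973 to 1.06).

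The collagenase gene Mmp8 was at 1.42 FPKM in AML (146 fragments), 5.99 in T-ALL, 10.5 in AUL and 50.9 in B-ALL, against 1130 in normal myeloid, 117.8 in lineage-negative, 14.2 in normal B and 6.43 in normal T cells. The tertiary granule gelatinase Mmp9 was at 1.37 FPKM in AML (75 fragments), 23.7 in T-ALL, 33.04 in AUL and 239.9 in B-ALL, against 3723, 322.9, 44.9 and 25.9 in normal myeloid, lineage-negative, B and T cells. AML was the lowest library for both proteases, and for Mmp8 the ratio of normal T cells to T-ALL, 1.07, had a counting interval of 0.957 to 1.203 that includes 1. Retnlg, a resistin-like protein of the granulocyte lineage, was at 9.37 FPKM in AML (235 fragments), 21.3 in T-ALL, 67.1 in AUL and 304.5 in B-ALL, against 7482, 776.0, 92.9 and 37.6 in the same order of normal libraries. AML was lowest for Retnlg as well.

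S100a8 and S100a9 encode the subunits of calprotectin, the metal-binding protein that fills the neutrophil cytosol and is not itself stored in granules. S100a8 was at 1788 FPKM in AML, 3581 in B-ALL, 640.0 in AUL and 392.4 in T-ALL, against 45392 in normal myeloid, 6311 in lineage-negative, 748.0 in normal B and 283.3 in normal T cells. S100a9 was at 2584 FPKM in AML, 3785 in B-ALL, 736.3 in AUL and 473.0 in T-ALL, against 65795, 7170, 1122 and 380.3 in normal myeloid, lineage-negative, B and T cells. Both subunits gave the same order of the 8 libraries, with AML at rank 4. Ly6g, the surface antigen of mature mouse neutrophils, was at 8.91 FPKM in AML, 35.9 in B-ALL, 5.92 in AUL and 4.53 in T-ALL, against 798.1, 85.4, 12.8 and 5.08 in normal myeloid, lineage-negative, B and T cells. AML had rank 5 of 8 for Ly6g. Normal T cells were not separated by counting error from AUL above them (ratio 1.17, 0.903 to 1.51) or from T-ALL below them (ratio 1.12, 0.865 to 1.45).

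Set against normal myeloid cells, the AML library kept very different fractions of the 10 transcripts. Camp stood at 17.5% and Ngp at 16.5% of the normal myeloid level. Lcn2 was at 4.50%, S100a8 at 3.94% and S100a9 at 3.93%, followed by Ly6g at 1.12% and Ltf at 0.249%. Mmp8 was at 0.126%, Retnlg at 0.125% and Mmp9 at 0.0368%, so the highest and lowest fractions differed 477-fold. The SD of the log2 fractions over the 10 genes was 3.17 in AML.

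No such spread was seen in the other libraries. In normal lineage-negative cells the 10 genes lay between 8.67% (Mmp9) and 13.9% (S100a8) of normal myeloid cells, with an SD of the log2 fractions of 0.17. The range was 1.21% to 1.71% in normal B cells (SD 0.19) and 0.503% to 0.696% in normal T cells (SD 0.13). Thus the normal libraries differed in the amount of these transcripts but hardly in their proportions. B-ALL ranged from 4.07% to 7.89% (SD 0.31) and AUL from 0.742% to 1.41% (SD 0.31). T-ALL was intermediate, from 0.285% for Retnlg to 1.30% for Lcn2 (SD 0.68). The 8 neutrophil markers moved with the members: their median was 11.2% of normal myeloid cells in lineage-negative cells, 5.56% in B-ALL, 1.47% in normal B cells, 1.06% in AUL, 0.657% in T-ALL and 0.622% in normal T cells, beside member medians of 10.4%, 5.92%, 1.37%, 1.15%, 0.792% and 0.569%. Their part in the members' levels was not tested. In AML the markers were spread like the members, from 0.0144% to 49.4% with a median of 3.06%, beside a member median of 2.52%. The lowest marker value in AML, that of Fpr1, rested on 1 fragment. Median-ratio scaling lowered the member median in each of the 7 libraries, to 1.39% in AML and 5.27% in normal lineage-negative cells for example, and by construction left the proportions between members as they were.

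**Figure D2:**
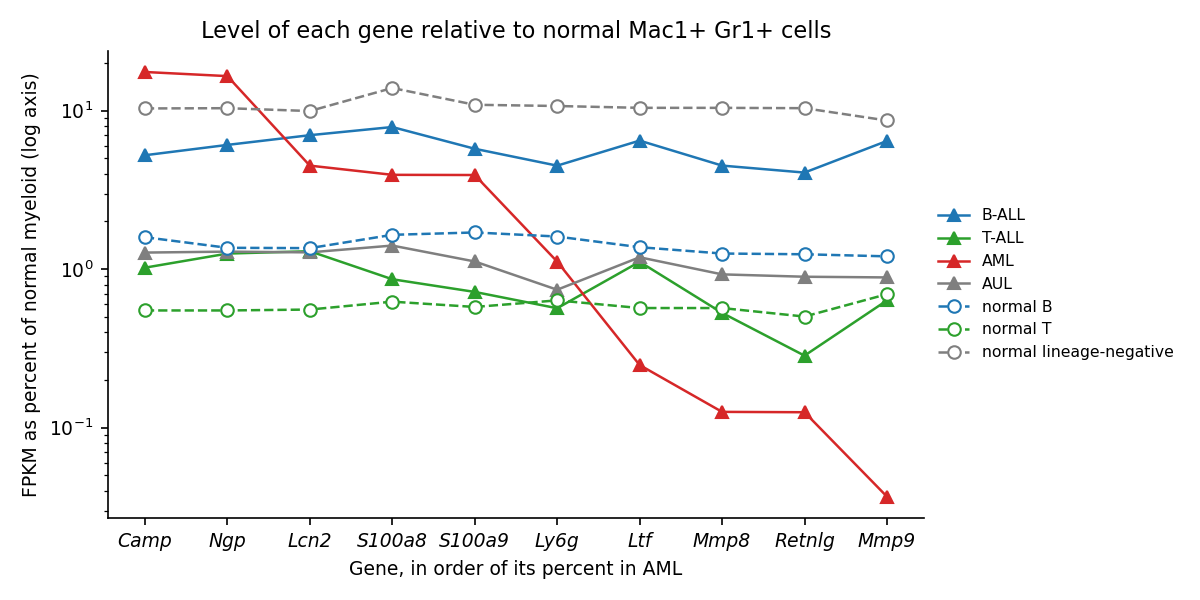
Each gene's level as a percent of its level in normal myeloid cells (log axis) in the other 7 libraries, 1 point per gene, with lines joining the points of a library. The points of AML spread from 0.0368% to 17.5%, while those of normal lineage-negative cells lie between 8.67% and 13.9%.

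The same values can be written as ratios of fragments within single libraries, where scaling between libraries plays no part. These ratios restate the proportions above and are not a separate check. Each is compared between libraries and is not read as a difference in level between genes. For every 100 fragments of Ngp, the 7 libraries other than AML held 56.3 to 67.5 fragments of Ltf, and AML held 0.954 (0.911 to 0.998). Lcn2 was at 27.4 to 32.9 fragments per 100 of Ngp in those 7 libraries and at 7.79 in AML. The ratio of Camp in AML, 29.1, lay inside the range of 22.3 to 32.0. For Ltf, Lcn2 and the 4 genes that follow, AML lay below the range. Mmp9 was at 8.50 to 21.3 fragments per 100 of Ngp in the 7 libraries and 0.0374 in AML, Mmp8 at 4.04 to 9.89 and 0.0728, Retnlg at 3.51 to 15.5 and 0.117, and Ly6g at 0.803 to 2.09 and 0.120. T-ALL gave the lowest of the 7 ratios to Ngp for Ltf, Camp, Mmp9, Mmp8, Retnlg and Ly6g, but not for Lcn2. S100a8 per 100 fragments of S100a9 was 66.0 in AML, within the range of 63.6 to 90.3 in the other libraries.

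Over the 45 pairs of members, the Pearson correlation of log2(FPKM + 1) over 8 libraries ran from 0.52 to 1.00 with a median of 0.88, and over the 7 libraries without AML from 0.97 to 1.00 with a median of 0.99. These are descriptions of few libraries that share the high normal myeloid point.

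In AML against normal myeloid cells, 10 of 10 members were at least 2-fold lower, where 26.7% of the 9965 genes tested were lower by that rule and 43.3% were higher. The differences, as log2(FPKM + 1) of AML minus normal myeloid, had a median of -5.50, beside 0.56 over all genes tested. Mmp9 was lowest at -10.62, a fold of 2720 in FPKM with a counting interval of 2170 to 3458. Retnlg was at -9.50 (799-fold), Mmp8 at -8.87 (794-fold) and Ltf at -8.63 (402-fold). Ly6g followed at -6.33, then S100a9 and S100a8 at -4.67 each and Lcn2 at -4.47, whereas Ngp was at -2.60 (6.05-fold) and Camp at -2.51 (5.70-fold). Of the genes called in this comparison, 61.8% were higher in AML, and 40.0% were after median-ratio scaling, which shifted the median of all genes to -0.35 and that of the members to -6.36. All 8 neutrophil markers (median -4.94) and 7 of 8 monocyte markers (-4.23) were lower and all 5 promyelocyte markers (2.68) higher, and their part in the members' difference was not tested.

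Genes of earlier and later stages were read in the same comparison. The 5 promyelocyte markers are all among the primary granule genes. The 8 neutrophil markers are all on the lists of other secondary or tertiary granule genes or of late neutrophil genes. The counts of markers and of these lists therefore share genes, here and in the comparisons below. Of 8 primary granule genes tested, 5 were higher in AML and 2 lower, with a median log2 difference of 2.11. Elane, neutrophil elastase, was at 3481 FPKM in AML and 445.5 in normal myeloid cells, and Mpo, myeloperoxidase, at 2220 and 354.4. Ctsg, cathepsin G, was at 1127 and 72.3 FPKM. Fcnb, ficolin B, was lower in AML, at 17.6 against 502.9 FPKM. In normal lineage-negative cells, Elane was at 2797 and Ctsg at 1060 FPKM.

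Of 14 other secondary or tertiary granule genes, 13 were lower in AML and 1 higher, with a median of -3.28. Chil3, a chitinase-like protein, was at 3004 FPKM in AML and 6076 in normal myeloid cells, and Hp, haptoglobin, at 668.2 and 2117. Pglyrp1, a peptidoglycan recognition protein, was at 486.1 and 2541 FPKM, and Cd177, a neutrophil surface protein, at 114.6 and 1806. The gene that was higher was Olfm4, olfactomedin 4 of the secondary granules, at 267.5 against 96.2 FPKM; it is named because it was the exception, after its values were seen. Of 22 late neutrophil genes, 21 were lower and none was higher, with a median of -4.59; the remaining gene, named for the same reason, was BC100530 at -0.22. Csf3r, the receptor for granulocyte colony-stimulating factor, was at 68.3 against 947.4 FPKM, and Il1b, the interleukin-1 beta gene, at 0.351 against 678.3.

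**Figure D3:**
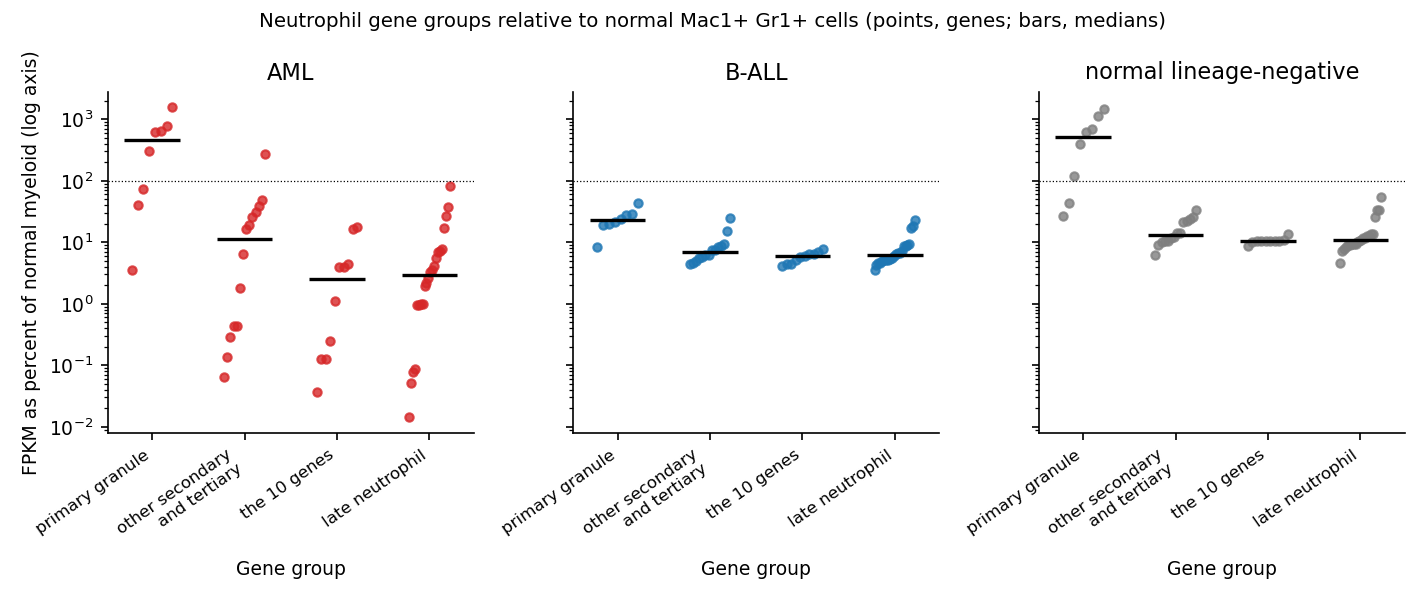
Level of the genes of 4 lists as a percent of normal myeloid cells (log axis) in AML, normal lineage-negative cells and B-ALL, 1 point per gene. The primary granule genes of AML and of normal lineage-negative cells have medians of 463% and 510%, and the members have medians of 2.52% and 10.4%.

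The transcription factors of the lineage did not move as a group. Of 13 tested in AML against normal myeloid cells, 3 were higher and 5 lower, with a median of -0.03. Cebpe was at 337.9 FPKM in AML and 345.8 in normal myeloid cells. Its part in the members' levels was not tested. Gfi1, a repressor needed for neutrophil maturation, was at 110.7 FPKM in AML and 18.8 in normal myeloid cells. Spi1, which encodes PU.1, was at 356.6 and 836.4 FPKM, Cebpb at 41.6 and 347.1, and Cux1, described as a repressor of Ltf, at 31.9 and 25.1. Cebpe in the other libraries was at 78.4 FPKM in normal lineage-negative cells, 25.5 in B-ALL, 8.03 in AUL, 7.92 in normal B cells, 7.61 in T-ALL and 1.92 in normal T cells.

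Of 9 receptors and partners tested, 8 were lower in AML than in normal myeloid cells and none was higher, with a median of -1.999. Itgb2, the beta chain of Mac1, was at 27.7 against 1135 FPKM. Fpr2, the formyl peptide receptor that binds the cathelicidin peptide, was at 0.258 against 334.3 FPKM, and Tlr4, a receptor for calprotectin, at 8.35 against 22.1. Timp2, an inhibitor of matrix metalloproteinases, was at 0.416 against 90.9 FPKM. Among relatives of the members, S100a6 was at 7.02 against 1634 FPKM and S100a11 at 1299 against 3847, and 7 of 8 S100 genes tested outside the members were lower. Of 5 other matrix metalloproteinase genes tested, 3 were lower, among them Mmp25 at 0.0841 against 129.2 FPKM.

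The second reference for AML was normal lineage-negative cells, which like AML expressed the primary granule genes. This comparison shares the AML library with the previous one. Of the 10 members, 8 were at least 2-fold lower in AML (29.2% of 10682 genes) and none was higher by that rule (11.5%). Camp and Ngp were higher by less than 2-fold, at log2 differences of 0.76 and 0.67. Lcn2 was at -1.14, S100a9 at -1.47 and S100a8 at -1.82, then Ly6g at -3.12, Ltf at -5.37, Mmp8 at -5.62, Retnlg at -6.23 and Mmp9 at -7.10. The median over all genes was -0.14. Primary granule genes gave 0 higher and 3 lower of 8, and late neutrophil genes 3 higher and 14 lower of 22. Of 14 other secondary or tertiary granule genes, 2 were higher and 6 lower, with a median of -0.56. The 2 were Olfm4 at 4.46 and Chil3 at 1.79. Neutrophil markers gave 1 higher and 5 lower of 8, with a median of -1.997. Monocyte (7 of 8), eosinophil (5 of 6), basophil and mast cell (6 of 6) and B cell (7 of 7) markers were lower. Their medians were -5.104, -6.684, -6.511 and -6.444. Promyelocyte and T cell markers gave none higher, with 1 of 5 and 1 of 7 lower. The part of these markers in the members' difference was not tested.

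In B-ALL, 10 of 10 members were at least 2-fold higher than in normal B cells, where 18.2% of 10608 genes were higher by that rule. The log2 differences ran from 1.42 for Ly6g to 2.39 for Mmp9, with a median of 1.96, beside -0.02 over all genes. Lcn2 stood at 2.36, S100a8 at 2.26, Ltf at 2.23 and Ngp at 2.15, and the other 4 genes between 1.70 and 1.77. The neutrophil markers were higher too, 8 of 8, with a summed level of 764.8 FPKM against 216.3, and their part in the members' difference was not tested. Markers of other cells moved too, with T cell markers 5 of 7 higher and 1 lower (median log2 difference 3.40) and plasmacytoid dendritic cell, basophil and mast cell, and NK cell markers 6 of 6, 6 of 6 and 5 of 6 lower. Of the other secondary or tertiary granule genes 11 of 14 were higher and none lower, and of the late neutrophil genes 17 of 22 were higher and 1 lower. Primary granule genes did not follow, with 1 of 8 higher and 2 lower.

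In T-ALL, 2 of 10 members were at least 2-fold higher than in normal T cells, against 22.1% of 10461 genes, and none was lower, against 24.0% of genes. The 2 were Lcn2 at 1.21 and Ngp at 1.19 on the log2 scale. Ltf at 0.96 and Camp at 0.88 were close below the limit, S100a8 was at 0.47 and S100a9 at 0.31. Mmp8 was at -0.09, Mmp9 at -0.13, Ly6g at -0.14 and Retnlg, the lowest, at -0.79 (1.76-fold lower, 1.58 to 1.97). The share of members called higher was near that of all genes, and the share called lower was below that of all genes. The other secondary or tertiary granule genes tested gave 1 higher and 3 lower of 12. Late neutrophil genes gave none higher and 7 lower of 16. Neutrophil markers gave 1 higher and 1 lower of 7, and T cell markers none higher and 1 lower of 7. B cell (7 of 7), NK cell (6 of 6), basophil and mast cell (6 of 6) and promyelocyte (5 of 5) markers were lower. Their medians were -5.56, -5.15, -5.20 and -1.34. The part of these markers in the members' difference was not tested.

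In AUL, 10 of 10 members were at least 2-fold lower than in normal lineage-negative cells, where 29.5% of 10759 genes were lower by that rule. This comparison shares its normal library with the second AML comparison. The log2 differences were narrow, from -3.64 for Ly6g to -2.95 for Lcn2, with a median of -3.27, beside -0.18 over all genes. All 14 other secondary or tertiary granule genes, all 8 primary granule genes and 19 of 21 late neutrophil genes tested were lower as well. The summed neutrophil markers were at 161.7 FPKM in AUL and 1522 in normal lineage-negative cells, with a median log2 difference of -2.98. Markers of other cells differed by more: monocyte (8 of 8), eosinophil (6 of 6), basophil and mast cell (6 of 6), B cell (7 of 7) and promyelocyte (5 of 5) markers were lower, with medians of -4.93, -5.33, -6.66, -6.24 and -6.68, and T cell markers were higher, 7 of 7 with a median of 4.83. The part of these in the members' difference was not tested.

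**Figure D4:**
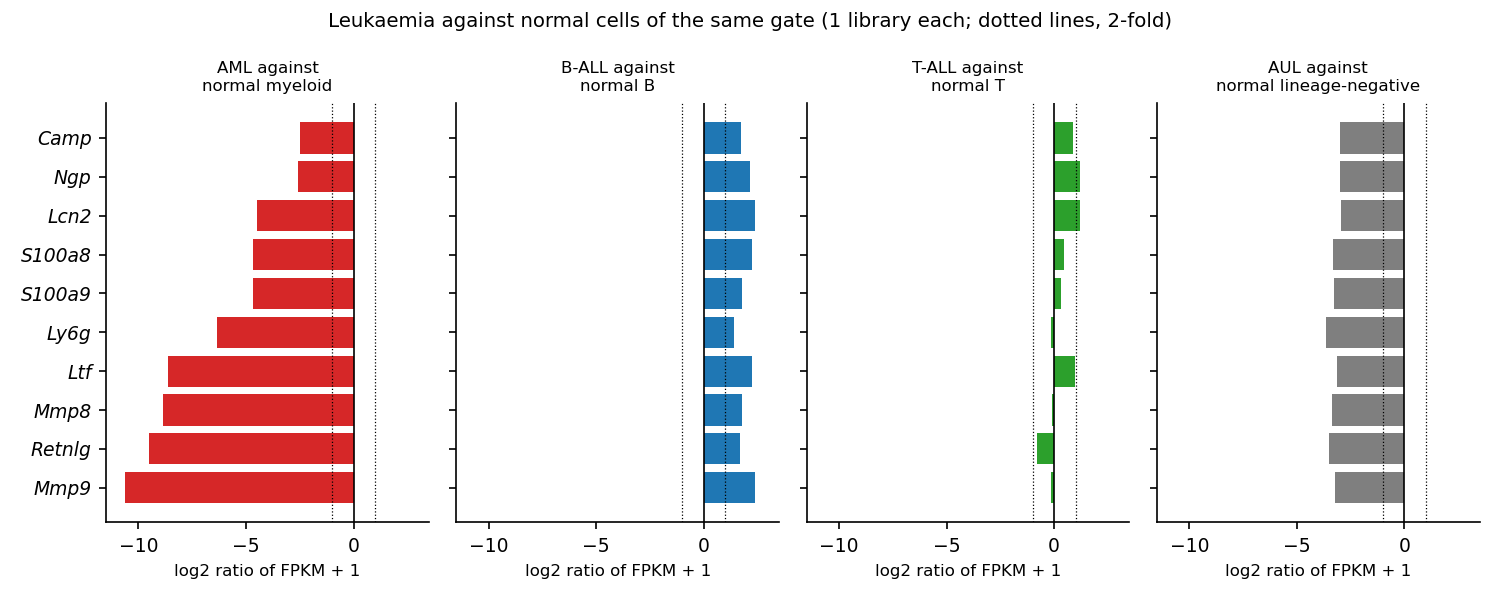
Log2 ratio of FPKM + 1, leukaemia against normal cells of the same gate, 1 bar per gene, with dotted lines at 2-fold. Bars of AML run from -2.51 (Camp) to -10.62 (Mmp9), those of B-ALL all lie above 2-fold, those of AUL lie between -3.64 and -2.95, and in T-ALL 2 bars pass 2-fold.

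Across the 4 gates, a limma fit of leukaemia against normal with the gate as a block called 3.69% of 11071 genes at an adjusted p under 0.05 (1.26% higher and 2.42% lower), and 0 of 10 members. At an unadjusted p under 0.05 in limma the count of members was also 0, beside 35.4% of all genes tested. The lowest adjusted p from limma was 0.187, for Retnlg, whose mean log2 difference was -3.02 (SE 1.53, 4 gates). For Mmp9 the mean was -2.90 (SE 1.79, adjusted p = 0.255) and for Ngp -0.57 (SE 0.91, adjusted p = 0.639). All 10 members were higher than normal in the B gate and lower in the myeloid and lineage-negative gates. The fit takes the 4 different leukaemias as repeats of the same condition. Its SE and p-values therefore measure how far the gates differ from each other, not the spread between replicates of a leukaemia.

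The genes outside the 10 whose pattern over the 8 libraries was most like the members' mean log2 level were Siglece (Pearson r = 0.996), Itgb2l (0.995), Crispld2 (0.991), Ceacam10 (0.988) and Asprv1 (0.987), followed by Cd300ld, Wfdc21, Mirt2, Pi16 and Stfa2l1 (0.983). They were taken from 3502 genes with an FPKM of at least 50 in some library. Siglece was at 222.6 FPKM in normal myeloid, 29.1 in lineage-negative, 13.03 in B-ALL and 3.85 in AML, and Wfdc21, a small secreted protein, at 1763, 239.6, 150.9 and 45.8. Like the members' mean, by which they were chosen, both were highest in normal myeloid cells and next highest in normal lineage-negative cells. Wfdc21 and Itgb2l are also on the list of neutrophil markers used above.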

How the data were processed

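The deposited table holds FPKM made by the authors for 8 libraries, 1 per group. STAR, HTSeq, edgeR and the mm10 build are named per the submitters' processing notes, with versions and settings not given in the sources used here. How genes entered the table is not given either, so every share given is of listed genes, which held 70.8% to 80.1% of fragments. FPKM times the mean transcript length of GENCODE vM21 (lengths for 16380 of 16434 genes, an inference from the values) was within 0.02 of a whole fragment for 94.5% (AML) to 95.4% (normal T) of the low values checked in genes with 1 transcript. This gave each library's total and the fragments behind a value, approximate for genes with several transcripts. Log2 ratios used FPKM + 1 and folds used FPKM. A gene was called at 2-fold if its higher library had FPKM 1 or more. limma 3.58.1 (R 4.3.3; lmFit, eBayes with trend, Benjamini-Hochberg) was fitted to genes with FPKM 1 or more in 2 or more libraries. The gate was a block, leaving 3 residual degrees of freedom. The limma step was tested on simulated data in which a changed gene moved alike in every gate. The members did not move alike, so that test does not cover their case.

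The members and lists were chosen with earlier results of these data known. Named beyond the members were up to 6 genes a list by highest FPKM, genes with a direct role, and the 10 most like in pattern. Where a symbol had several rows, the row with the highest summed FPKM was used. Protein sequences were not analysed here.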

Additional observations from a re-analysis of the deposited data

Results flagged for a closer look

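All 10 members were higher in B-ALL than in normal B cells and lower in AML than in normal myeloid cells. With 1 library per group the difference between these gates was not tested. The B gate log2 ratio minus the myeloid gate log2 ratio was 13.01 for Mmp9, 11.20 for Retnlg, 10.86 for Ltf and 10.64 for Mmp8. It was 7.75 for Ly6g, 6.92 for S100a8, 6.83 for Lcn2 and 6.42 for S100a9. The smallest differences were those of Ngp at 4.75 and Camp at 4.22.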

How the results depend on the processing

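Calls of members at 2-fold were unchanged in direction by the pseudocount, the minimum FPKM and the scaling; of 200 member log2 ratios under 4 settings, none reversed, and 91 moved beyond the counting interval. At 4-fold, B-ALL had 5 members higher and T-ALL 0, and AML had 5 lower than normal lineage-negative cells. Median-ratio scaling, whose divisor was 0.584 for normal myeloid cells, moved the member medians to 1.39% of normal myeloid cells for AML, 2.99% for B-ALL, 0.670% for AUL, 0.407% for T-ALL, 0.758% in normal B, 0.330% in normal T and 5.27% in normal lineage-negative cells. Scaling to a common FPKM sum without the members gave 2.15%, 5.29%, 0.907%, 0.677%, 1.25%, 0.478% and 8.94% in the same order. With normal lineage-negative cells as the reference, an alternative chosen after seeing the data, the SD over members in normal T cells was 0.22.

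The limma calls over all genes, 140 higher and 268 lower, became 8 and 33 with no replicate block, 309 and 530 with a pseudocount of 0.1, 3 and 0 with no filter, 354 and 566 with median-ratio scaling, and 33 and 137 with a common FPKM sum; the cause was not tested. The pairing comes from the gate, since the labels carry no shared replicate numbers. Without 1 gate in turn, 0 to 11 were higher and 0 to 158 lower, and no member passed in any setting. The mean log2 difference with 1 gate left out ranged from -3.60 (no B gate) to 0.023 (no myeloid gate) for Ltf, from -1.55 (no B gate) to 0.029 (no lineage-negative gate) for Camp, from -1.47 (no B gate) to 0.25 (no lineage-negative gate) for Ngp and from -2.07 (no B gate) to 0.20 (no myeloid gate) for Lcn2. Without the myeloid gate Ngp was also above 0, at 0.11. Over all settings the members' adjusted p-values from limma ran from 0.0786 (Retnlg, no B gate) to 0.990 (Ltf, no myeloid gate). Of the 10 genes most like the members, 3 were shared with Spearman ranks and 0 with the mean of Camp and Ngp. Among the members, depth limits Mmp9 in AML most, at 75 fragments. Outside the members, Fpr1, Fpr2, Il1b and Mmp25 in AML rested on 1, 11, 12 and 14 fragments.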

Other observations

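Camp and Ngp differed from the other members in AML, and the genes most like their mean over the 8 libraries were looked for after their values were seen. These were Rhou (Pearson r = 0.995), Lin28a (0.994), Olfml2b, Mrgpra2b, Cd14, Mapk13, Tinagl1, Slfn4, Padi4 and Mcemp1 (0.985), none of which was among the 10 most like the mean of all members. Padi4, the enzyme that citrullinates histones in neutrophils, was at 206.2 FPKM in AML, 550.8 in normal myeloid, 69.6 in normal lineage-negative cells and 52.4 in B-ALL. Slfn4, a schlafen family gene, was at 95.9, 748.6, 67.7 and 57.1 FPKM in the same libraries. Both stood second in AML, as Camp and Ngp did, which follows largely from choosing them by likeness to those genes. Lin28a, an RNA-binding protein known from embryonic cells, was at 24.5 FPKM in AML and 105.4 in normal myeloid cells. These are correlations over 8 libraries of 1 per group and carry no test.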
